A study of Mus musculus with 34 samples.

Results

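The genes described here are 10 of those that form, load or activate the MCM helicase in mouse cells: Mcm2, Mcm3, Mcm4, Mcm5, Mcm6, Mcm7, Mcm10, Cdc6, Cdt1 and Cdc45. They were taken by name out of 18194 genes that the array annotation names, and they are read by 28 probe sets on an Affymetrix array. RNA came from the thoracic spinal cord of C57BL/6J mice backcrossed for more than 20 generations and 8 to 12 weeks old. The mice were trkB.T1 KO or trkB.T1 WT, where trkB.T1 is the truncated receptor isoform made from the gene Ntrk2, and they had either a sham operation or a moderate contusion of the cord. Cords were taken from sham mice (4 KO, 4 WT) and at day 1 (4 KO, 5 WT), day 3 (5 KO, 4 WT) and day 7 (4 KO, 4 WT) after contusion, 34 arrays in all. The labels describe no transgene, promoter or Cre line for the KO, so the cells in which the isoform was lost are known only as far as the genotype label goes.

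Before a cell can copy its DNA, each origin has to be licensed. The origin recognition complex and Cdc6 sit on the origin, Cdt1 brings the ring made of Mcm2 to Mcm7, and the rings are left closed around the DNA in an inactive state. When S phase begins, kinases add Cdc45 and the GINS complex with the help of Mcm10, which turns the ring into the working helicase, while geminin holds Cdt1 back so that an origin is not licensed again. These genes are transcribed in cells that are in or about to enter the cycle, many of them through E2F sites in their promoters, and MCM proteins are widely used to mark such cells. Most neurons and oligodendrocytes of the adult cord do not divide, whereas microglia, infiltrating macrophages, glial precursors, ependymal, endothelial and fibroblast-like cells can divide after a contusion.

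RefSeq windows of 250 bases before to 50 after the gene start (build GRCm38.p6) were searched on both strands for the E2F-type octamers TTTCCCGC, TTTCGCGC, TTTGCCGC and TTTGGCGC, and overlapping matches were counted as 1. A match was present in 6 of the 9 members with a window (66.7%), in 16 of 48 other replication genes (33.3%) and in 704 of 27025 genes of the whole table (2.6%). Mcm2, Mcm10 and Cdc45 had a window with no match, and Mcm4 had no window. The matches of all 6 members that hold at least 1 are shown. Mcm5, Mcm6, Mcm7 and Cdc6 differed between KO and WT at day 1 below, and Mcm3 and Cdt1 did not pass there. A link between matches and that difference was not tested. Capitals mark the matched letters, and each line is 5′ to 3′ on the gene's strand.
Mcm3, chr1:20820275-20820304, minus strand: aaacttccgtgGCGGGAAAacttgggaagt
Mcm3, chr1:20820263-20820292, minus strand: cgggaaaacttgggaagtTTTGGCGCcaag
Mcm5, chr8:75109347-75109376, plus strand: gccaagaacTTTCGCGCCAAAacgtccagc
Mcm6, chr1:128359795-128359824, minus strand: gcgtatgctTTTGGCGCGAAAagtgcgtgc
Mcm6, chr1:128359734-128359763, minus strand: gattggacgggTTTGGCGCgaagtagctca
Mcm7, chr5:138172030-138172059, minus strand: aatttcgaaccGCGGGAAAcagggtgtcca
Mcm7, chr5:138171849-138171878, minus strand: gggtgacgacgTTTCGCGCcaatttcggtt
Cdc6, chr11:98908002-98908031, plus strand: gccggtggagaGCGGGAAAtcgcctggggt
Cdt1, chr8:122568035-122568064, plus strand: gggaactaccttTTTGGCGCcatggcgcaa

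The Mcm5 and Mcm6 promoters each hold the same 12 letters in opposite orientation, TTTCGCGCCAAA in Mcm5 and TTTGGCGCGAAA in Mcm6, in which octamers of both strands overlap. Counting the first transcribed base as 1 and the base before it as -1, the run lies at -153 to -142 in Mcm5 and at -110 to -99 in Mcm6. The second Mcm6 match lies at -47 to -40, so that this gene has both of its matches upstream of its start. The whole upstream window of Mcm6 is shown for that reason, with both matches in capitals.
Mcm6, chr1:128359706-128359955, minus strand: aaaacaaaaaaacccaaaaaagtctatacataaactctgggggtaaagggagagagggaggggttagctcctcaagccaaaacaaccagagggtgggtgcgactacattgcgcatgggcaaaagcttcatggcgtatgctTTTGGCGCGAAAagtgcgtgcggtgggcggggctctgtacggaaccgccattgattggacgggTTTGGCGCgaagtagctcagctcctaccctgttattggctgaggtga
In Mcm3 both matches and in Cdt1 the only match lie after the start, at 20 to 27 and 39 to 46 in Mcm3 and at 33 to 40 in Cdt1. A match describes these letters and says nothing about binding of a factor.

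Values are the authors' log2 signals, in which 1 unit is a 2-fold difference and a value under 4 lies near the floor of the table, so that a difference from a group whose mean is under 4 is a lower bound. Of the 28 probe sets of the members, 18 reached 4 in at least 4 arrays and were tested together with all others, 24573 in all, and they cover 8 members. Mcm10 and Cdc45 reached 4 in 3 arrays each and were not tested. Where a gene had several tested probe sets, the brightest stands for it. All probe sets of a gene are on their own scale, and levels of different genes are not compared.

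The arrays carry some conflicts that bear on the results. Replicates 1 and 2 of day 1 WT are titled day 1, but their source and time fields say day 7 and sham. Their monocyte and macrophage markers, none of them a member, summed to 13.26 and 13.19 in log2. The other day 1 WT arrays had 12.45 to 13.33, day 7 WT had 15.00 to 15.45 and sham WT had 9.55 to 10.72. Which label is right was not tested. Titles were followed. Replicate 2 of sham KO went against its label on the targeted gene: on the 2 Ntrk2 probe sets examined its signals were 9.46 and 8.59, the other 16 KO arrays lay at 3.12 to 4.94 and at 2.83, and the 17 WT arrays at 10.01 to 10.85 and 8.65 to 9.92. It is therefore the library labelled sham KO replicate 2, and results against sham KO are given with and without it where that changes them. Description codes of the sham arrays begin with Nav, which the labels do not explain. Neuron, oligodendrocyte and astrocyte markers were bright in every group, with no gene of these lists averaging under 4, and all 6 lymphocyte markers averaged under 4 in every group.

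The licensing genes were higher after contusion in both genotypes. At day 1, 7 of 8 tested members were higher than sham in KO and 8 of 8 in WT, by limma with Benjamini-Hochberg adjustment over all probe sets at a threshold of 0.05, where 20.9% of all probe sets were called higher in KO and 24% in WT. Day 3 gave 8 of 8 in both genotypes (28.2% of all probe sets in KO, 26.1% in WT). Day 7 gave 7 of 8 in KO and 6 of 8 in WT (19.8% and 21.8%). Without the library labelled sham KO replicate 2, Mcm4 was no longer called in KO at day 1 or day 7, which leaves 6 of 8 at each. The median member difference from sham was 1.59, 2.99 and 1.48 in KO and 2.46, 2.74 and 1.60 in WT at days 1, 3 and 7. In a bulk sample, more cells that carry a transcript and more of it per cell cannot be told apart. Of the monocyte and macrophage markers, all 6 measured were also higher at day 1 in KO and in WT. Their summed log2 levels were 12.36 to 13.15 in day 1 KO against 8.04 to 10.08 in sham KO, and 12.45 to 13.33 in day 1 WT against 9.55 to 10.72 in sham WT. None of the 6 averaged under 4 at day 1 in either genotype, against 3 of 6 in sham KO and in sham WT. At day 3 their sums were 14.54 to 15.55 in KO and 14.29 to 14.85 in WT, and at day 7 they were 14.88 to 15.10 in KO and 15.00 to 15.45 in WT. Endothelial markers were higher than sham for 2 of 6 in KO and 6 of 6 in WT at day 1, and for 5 of 6 in KO and 6 of 6 in WT at day 3. Their sums were 10.20 to 10.48 in day 1 KO and 10.15 to 10.41 in day 1 WT. In sham they were 9.81 to 10.09 in KO and 9.21 to 9.57 in WT. Other lists went otherwise at day 1. Of 5 microglia markers 0 were higher than sham in either genotype, with 3 lower in KO and 2 in WT. Of 3 ependymal markers 2 were lower in each genotype, and of 5 oligodendrocyte precursor markers 1 was higher and 1 lower in each. Pericyte and fibroblast markers were higher for 0 of 7 in KO and 4 of 7 in WT. Skeletal muscle markers were lower than sham for 8 of 8 in KO and 0 of 8 in WT. They summed to 11.42 to 14.50 in sham KO and 6.25 to 10.38 in day 1 KO. In WT the sums were 6.10 to 12.9 in sham and 6.04 to 11.95 at day 1. From day 3 to day 7, 5 of 6 endothelial markers fell in KO and 6 of 6 in WT, and of the monocyte and macrophage markers 4 of 6 fell in KO, while in WT 2 fell and 2 rose. The 3′ signal of the actin controls exceeded their 5′ signal, a gap that widens as RNA degrades, by 1.22 to 1.81 in day 3 KO against 1.989 to 2.136 in sham KO, and by 1.39 to 1.54 in day 3 WT against 1.805 to 2.051 in sham WT. The part of these in the rise was not tested.

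The helicase ring subunits rose together but to different extents. On the probe sets that stand for the genes, Mcm3, a subunit of the ring, had the largest difference from sham. Its signals were 8.31, 7.96, 9.02, 9.16 and 8.26 in day 3 KO against 3.37, 3.97, 4.73 and 4.82 in sham KO. They were 8.42, 8.00, 8.29 and 7.81 in day 3 WT against 4.11, 5.02, 4.64 and 4.33 in sham WT. Every day 3 array was above every sham array, and Mcm3 was 4.32 ± 0.25 log2 units higher at day 3 than in sham in KO (SE; 20-fold, adjusted p = 1.01e-14) and 3.60 ± 0.26 in WT (12.2-fold, adjusted p = 2.83e-12). Mcm4 had the smallest: 9.92, 9.29, 10.25, 10.05 and 9.81 in day 3 KO against 8.60, 8.23, 8.84 and 8.36 in sham KO, and 9.75, 9.60, 9.75 and 9.40 in day 3 WT against 8.57, 8.60, 8.30 and 8.58 in sham WT. The groups again did not overlap, and the difference was 1.36 in KO (2.57-fold, adjusted p = 8.4e-09) and 1.11 in WT (2.16-fold, adjusted p = 9e-07). Such separation was common: the day 3 and sham groups lay apart in 55% of all probe sets in KO and 53% in WT. On another Mcm3 probe set the difference was at least 3.17 in KO and at least 2.38 in WT, with sham means of 2.82 and 2.86. On a further Mcm3 probe set it was 3.76 in KO, and the WT means were 7.57 at day 3 and 4.41 in sham. Because probe sets differ in background and slope, the order of these sizes between genes is a description of the array signal.

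The other ring subunits lay between these. At day 3 Mcm5 was 3.74 higher than sham in KO (13.4-fold) and 3.21 higher in WT (9.23-fold). Mcm6 was 3.39 higher in KO and 2.87 higher in WT, and Mcm7 was 2.20 higher in KO and 1.78 higher in WT. Mcm2 was 2.92 higher in KO and 2.65 higher in WT, where the sham WT mean of 3.71 makes the last value a lower bound. The highest adjusted p among these 8 differences was 8.36e-10, for Mcm2 in WT. At day 7 the ring subunits were still higher than sham in both genotypes, except that Mcm4 in WT did not pass (0.36, adjusted p = 0.0565). In KO Mcm4 passed with 0.46 (adjusted p = 0.0176), but not without replicate 2 or 4 of sham KO. Nor did it pass in KO with arrays centred on the median, or with conflicting labels read by source and time.

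Cdt1, which brings the ring to the origin, followed the ring subunits. Its signals were 8.75, 8.56, 9.59, 9.59 and 8.58 in day 3 KO against 5.70, 5.68, 6.15 and 6.29 in sham KO, and 8.80, 9.15, 8.92 and 8.52 in day 3 WT against 5.99, 6.43, 6.01 and 5.63 in sham WT. Every day 3 array was above every sham array, where the 2 groups lay apart in 55% of all probe sets in KO and 53% in WT. The day 3 difference was 3.06 in KO (8.35-fold, adjusted p = 2.69e-13) and 2.83 in WT (7.12-fold, adjusted p = 7.16e-12). At day 7 Cdt1 was still 1.82 above sham in KO and 1.83 above sham in WT.

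Cdc6, the ATPase that helps to load the ring, was at the floor in sham cords and returned close to it. It was 3.28 to 3.56 in day 7 KO against 2.29 to 3.28 in sham KO, and 3.28 to 3.94 in day 7 WT against 2.18 to 3.28 in sham WT. Neither day 7 difference passed (0.42 in KO, adjusted p = 0.249; 0.59 in WT, adjusted p = 0.0934). At day 3 it was at least 2.79 higher than sham in KO (adjusted p = 1.52e-09) and at least 2.60 higher in WT (adjusted p = 2.24e-08).

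The helicase activators Mcm10 and Cdc45 were near the floor in most arrays. Mcm10 read 3.08, 2.59, 3.82, 4.36 and 2.82 in day 3 KO and 4.57, 4.25, 2.85 and 3.17 in day 3 WT, with sham arrays at 2.50 to 2.55 in KO and 2.47 to 2.55 in WT. Cdc45, a subunit of the active helicase, read 4.03, 3.53, 4.80, 4.81 and 3.83 in day 3 KO and 3.89, 3.18, 3.86 and 3.06 in day 3 WT, with sham arrays at 2.85 to 3.06 in KO and 2.41 to 3.06 in WT. For both genes the highest arrays are day 3 arrays, and the KO and WT arrays of that day overlap. With the filter on low values removed, Cdc45 was at least 1.19 higher at day 3 than in sham in KO (adjusted p = 1.55e-05) and at least 0.70 higher in WT (adjusted p = 0.00897). Mcm10 was at least 0.80 higher in KO (adjusted p = 0.0234) and at least 1.20 higher in WT (adjusted p = 0.00168) in the same fit.

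**Figure D1:**
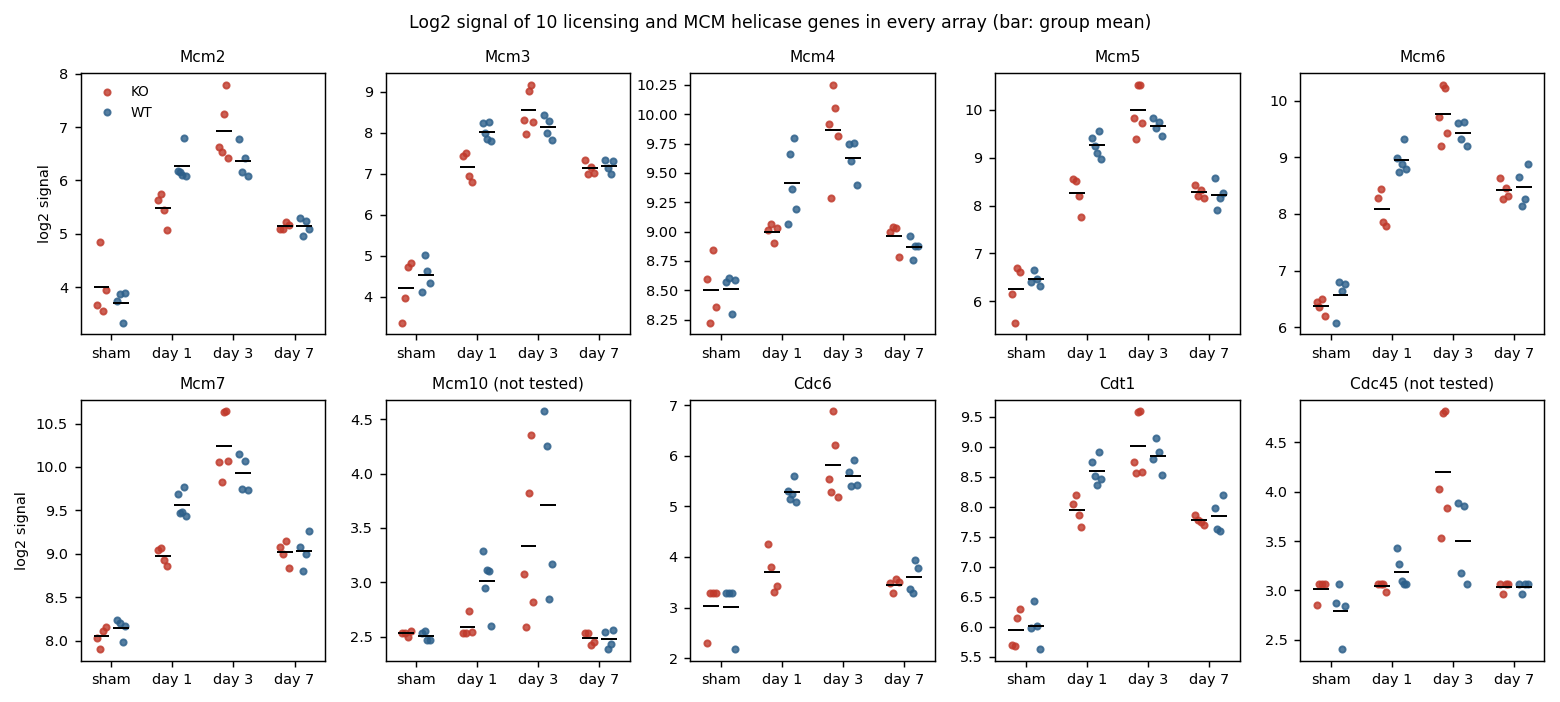
Log2 signal (y axis, a scale of its own in each panel) of the 10 genes in all 34 arrays at sham and days 1, 3 and 7 (x axis), with KO in red on the left and WT in blue on the right of each pair; black bars are group means. At day 1 the KO points lie below the WT points in 7 of the 8 tested genes, where 4.4% of all probe sets had groups apart, and at day 3 the groups overlap in all 8, against 0.785% of all probe sets with groups apart.

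At day 1 after contusion, Mcm5, Mcm6, Mcm7 and Cdc6 had lower signals in KO cords. They are 4 of 8 tested members, with 0 higher in KO, where 0.435% of all probe sets were called lower and 0.549% were called in either direction. The groups did not overlap in 7 of 8 members, against 4.4% of all probe sets. All 18 member probe sets had negative differences, and 6 of them passed. The median member difference was -0.82, with a median of 0.004 over all probe sets tested.

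Among the ring subunits, Mcm5 read 8.55, 8.52, 8.21 and 7.76 in day 1 KO against 9.42, 9.25, 9.11, 9.56 and 8.98 in day 1 WT. The highest KO array was below the lowest WT array, and Mcm5 was 2.01-fold lower in KO (log2 difference -1.01 ± 0.22 SE, adjusted p = 0.0192). Mcm6 read 8.28, 8.44, 7.85 and 7.78 in day 1 KO against 8.997, 8.73, 8.88, 9.33 and 8.79 in day 1 WT. It was 1.81-fold lower in KO, again without overlap (-0.86 ± 0.20, adjusted p = 0.0349). Mcm7 read 9.04, 9.07, 8.93 and 8.86 in day 1 KO against 9.69, 9.47, 9.48, 9.77 and 9.43 in day 1 WT. Its KO arrays spanned a narrow range below all WT arrays, and the difference was 1.51-fold (-0.59 ± 0.13, adjusted p = 0.0294). A second Mcm5 probe set, whose KO mean was near the floor, passed as well (-0.94, adjusted p = 0.0362), a second Mcm6 probe set just missed (-0.75, adjusted p = 0.0511), and of 3 further Mcm7 probe sets 1 passed (-0.72, adjusted p = 0.011), the others having -0.60 and -0.62. In simulated data of the same design, 85% of 1-unit and 51% of 0.5-unit changes between day 1 KO and day 1 WT were called. Those changes were planted in probe sets drawn at random from all tested ones, with independent noise. The rates therefore do not give the power for the members, which vary together.

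Mcm2, Mcm3 and Mcm4 did not pass. Mcm2 read 5.63, 5.75, 5.45 and 5.08 in day 1 KO against 6.18, 6.16, 6.10, 6.80 and 6.07 in day 1 WT, a difference of -0.79 (95% interval -1.28 to -0.29, adjusted p = 0.175). Mcm3 read 7.43, 7.51, 6.94 and 6.81 in day 1 KO against 8.23, 7.98, 7.84, 8.26 and 7.80 in day 1 WT, a difference of -0.85 (-1.36 to -0.34, adjusted p = 0.151). Neither gene's groups overlapped. Mcm4 overlapped, with 8.90 to 9.07 in day 1 KO and 9.06 to 9.80 in day 1 WT (-0.41, -0.72 to -0.11, adjusted p = 0.311).

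Of the loading factors, Cdc6 had the largest difference of the 8. It read 4.26, 3.80, 3.31 and 3.42 in day 1 KO against 5.31, 5.14, 5.24, 5.60 and 5.08 in day 1 WT. Each WT array was above each KO array, and the KO mean of 3.70 makes the difference of -1.58 ± 0.28 (2.98-fold, adjusted p = 0.00297) a lower bound in size. Cdt1 read 8.04, 8.20, 7.87 and 7.66 in day 1 KO against 8.74, 8.52, 8.37, 8.92 and 8.46 in day 1 WT. Its groups did not overlap, but the difference of -0.66 (-1.08 to -0.24) did not pass (adjusted p = 0.185). The untested activators had 2.54 to 2.74 in day 1 KO and 2.60 to 3.29 in day 1 WT for Mcm10, and 2.98 to 3.07 in day 1 KO and 3.06 to 3.43 in day 1 WT for Cdc45.

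The count of 4 rests on a few arrays. Without replicate 1 or 4 of day 1 WT, or replicate 3 or 4 of day 1 KO, only Cdc6 passed in each case, and it was also the 1 member that passed without both arrays whose labels conflict. With those arrays grouped by their source and time fields, 0 passed. The differences of all 8 members stayed negative in all 45 alternatives, between -1.10 and -0.84 for Mcm5 and between -1.76 and -1.45 for Cdc6. Many of these alternatives left out arrays of other groups or changed only the filter or the spread. Such alternatives cannot change a day 1 difference, so they do not bear on its sign. Pericyte and fibroblast markers at day 1 summed to 12.24 to 13.43 in KO and 13.31 to 13.74 in WT, ranges that overlap. Of these markers 5 had a negative and 2 a positive difference, and 0 of 7 passed. Microglia markers summed to 8.91 to 9.21 in KO and 9.17 to 9.64 in WT (0 of 5), and monocyte and macrophage markers to 12.36 to 13.15 in KO and 12.45 to 13.33 in WT (0 of 6). The actin gap was 1.745 to 1.823 in day 1 KO and 1.613 to 1.779 in day 1 WT. The part of these in the result was not tested.

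**Figure D2:**
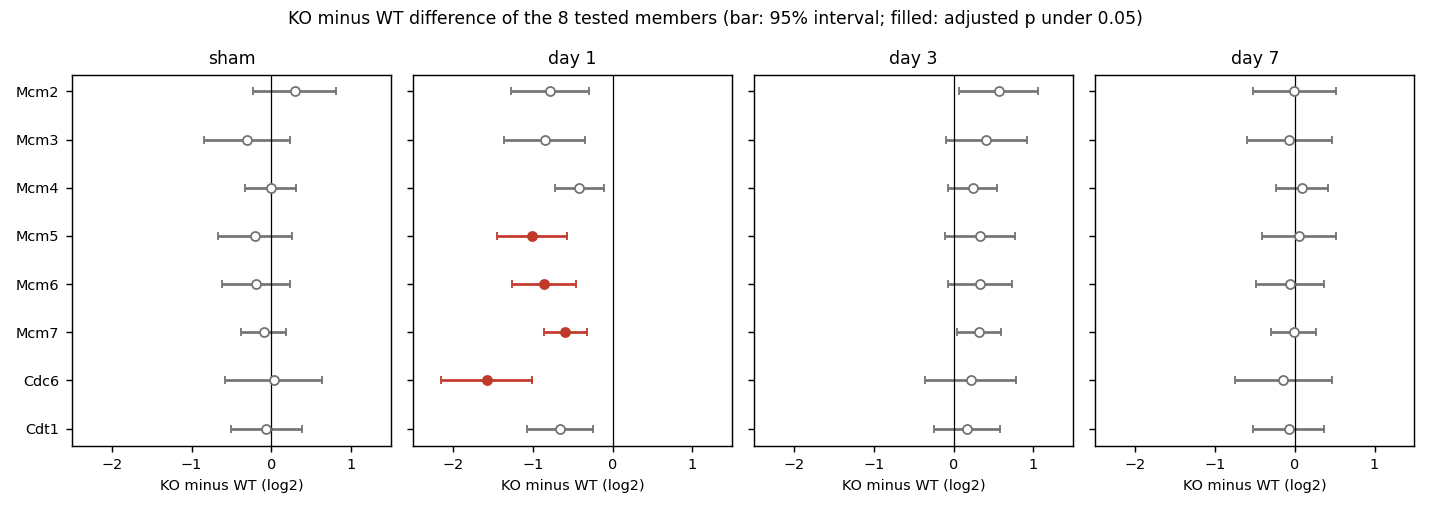
KO minus WT log2 difference (x axis) of the 8 tested genes (rows) in sham cords and at days 1, 3 and 7; bars are 95% intervals and filled red points passed the test. At day 1 all 8 points lie left of 0 and Mcm5, Mcm6, Mcm7 and Cdc6 passed; no gene passed at another time.

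At the other times limma called no member different between KO and WT. In sham cords 0 of 8 passed (0 at an unadjusted p under 0.05), with differences of -0.30 to 0.29, where 0.0529% of all probe sets were called. At day 3 also 0 of 8 passed (2 unadjusted, Mcm2 and Mcm7; 0.0366% of all probe sets), with every difference positive, from 0.17 to 0.56, and adjusted p from 0.419 to 0.796. At day 7, 0 of 8 passed (0 unadjusted; 0.0407%), with differences of -0.14 to 0.09. The 95% intervals at day 7 reached from -0.74, for Cdc6, to 0.52, for Mcm5, so smaller differences in either direction remain possible.

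The positive differences at day 3 came with 2 arrays. Replicates 3 and 4 were the top 2 of the day 3 KO group in all 8 members, for example 10.52 and 10.52 for Mcm5, with 9.40 to 9.84 in the other day 3 KO arrays and 9.45 to 9.83 in day 3 WT. The same replicates had the highest monocyte and macrophage sums of that group (15.33 and 15.55, with 14.54 to 14.86 in the others), the lowest neuron sums (15.66 and 15.69, with 16.18 to 16.46) and the lowest actin 3′ minus 5′ differences (1.345 and 1.22). Replicate 3 had a skeletal muscle sum of 17.12, with 7.88 to 14.91 in the other day 3 KO arrays. Without both, the difference was -0.01 for Mcm5, -0.27 for Cdc6 and -0.22 for Cdt1, while the other 5 stayed positive, from 0.01 for Mcm6 to 0.17 for Mcm2, and still 0 of 8 passed. Which of these differences between arrays bears on the members was not tested.

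For some members the step from day 1 to day 3 differed between the genotypes. In KO cords all 8 members were higher at day 3 than at day 1, by a median of 1.41 (19.4% of all probe sets were called higher). In WT cords the median was 0.29, and only Mcm7 passed (0.36, adjusted p = 0.0435; 11.7% of all probe sets). Set against each other, the step was larger in KO than in WT for all 8 members, and 4 passed the test of that difference, where 0.407% of all probe sets were called higher in KO and 0.452% in either direction. Mcm5 stepped up by 1.74 in KO and 0.40 in WT (difference 1.34 ± 0.30, adjusted p = 0.0361). Mcm6 stepped up by 1.68 in KO and 0.49 in WT (1.19 ± 0.28, adjusted p = 0.0462). Mcm7 stepped up by 1.27 in KO and 0.36 in WT (0.91 ± 0.19, adjusted p = 0.018). Cdc6 stepped up by 2.12 in KO and 0.33 in WT (1.79 ± 0.40, adjusted p = 0.0317), where the day 1 KO mean under 4 makes the KO step a lower bound. For the other members the difference was 1.35 for Mcm2 (adjusted p = 0.0692), 1.26 for Mcm3 (0.111), 0.65 for Mcm4 (0.192) and 0.82 for Cdt1 (0.237). Markers of other cells also moved over this step. Of the pericyte and fibroblast markers 6 of 7 were called higher at day 3 in KO (median 2.27) and 2 of 7 in WT (median 1.03), and the step differed by a median of 1.24, with 0 of 7 called and 5 of 7 positive. Of the microglia markers 4 of 5 were called in KO (median 2.84) and 4 of 5 in WT (median 1.68), and the step differed by a median of 1.03, with 0 of 5 called and 5 of 5 positive. The members' median for that difference was 1.23. Monocyte and macrophage markers differed by 0.64 (0 of 6 called) and endothelial markers by 0.004 (0 of 6 called). The part of these in the step was not tested.

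This contrast shares its day 1 arrays with the KO and WT comparison at day 1 and is no independent view of it. It also rests on few arrays: 0 members passed without replicate 2 of day 3 WT, replicate 3 or replicate 4 of day 1 KO, both arrays with conflicting labels, or replicates 3 and 4 of day 3 KO together. Only Mcm7 passed without replicate 4 of day 3 WT, replicate 3 or 4 of day 3 KO, or replicate 1, 2 or 4 of day 1 WT, and 7 passed without replicate 2 of day 3 KO. The differences between KO and WT in the rise from sham were called by limma for 0 members at day 1 (-1.60 to -0.41; 5 at an unadjusted p under 0.05; 0.0692% of all probe sets called), 0 at day 3 (0.19 to 0.72; 1 unadjusted; 0%) and 0 at day 7 (-0.30 to 0.26; 0 unadjusted; 0.00407%). Cdc6 had the largest of these, -1.60 at day 1 (adjusted p = 0.213), and it passed without replicates 3 and 4 of day 3 KO (adjusted p = 0.0344).

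Shares of the day 3 rise were taken between log2 differences, not between signals, over the 6 members whose sham means were at least 4 in both genotypes. This leaves out Mcm2 and Cdc6. The day 1 share was 36.5% to 68.3% in KO (median 52%) and 79.8% to 97% in WT (median 85.2%). No test was run on the shares, and the rise from sham differed between genotypes for 0 members by limma at day 1 and at day 3. The KO shares include sham KO replicate 2 and day 3 KO replicates 3 and 4, and were not recomputed without them. Mcm7 was at 42.1% in KO and 79.8% in WT, and Mcm3 at 68.3% in KO and 97% in WT. The share still present at day 7 was 33.8% to 67.2% in KO (median 56.8%) and 32.1% to 74% in WT (median 60%). From day 3 to day 7 all 8 members fell in both genotypes, by a median of 1.38 in KO and 0.97 in WT on the log2 scale, where 14.2% of all probe sets fell in KO and 10.5% in WT. Cdc6 fell by 2.37 in KO and 2.01 in WT, and Mcm4 fell by 0.90 in KO and 0.76 in WT.

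**Figure D3:**
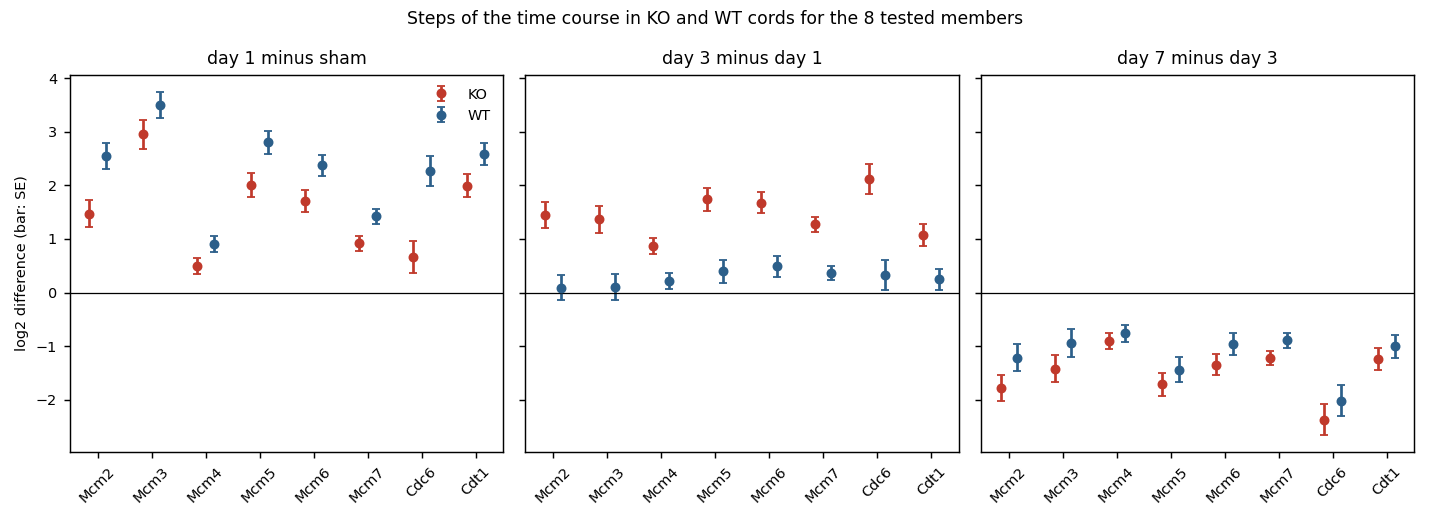
Log2 difference (y axis, bars are SE) of each tested gene over 3 steps, day 1 minus sham, day 3 minus day 1 and day 7 minus day 3, with KO in red left of WT in blue. In the middle panel the KO points lie at 0.86 to 2.12 and the WT points at 0.10 to 0.49.

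The order of group means was nearly the same for every tested member. Day 3 KO was highest, then day 3 WT, then day 1 WT, and these neighbours overlapped in all 8 genes, where the WT groups of day 3 and day 1 lay apart in 19.7% of all probe sets. The day 1 KO, day 7 KO and day 7 WT means came next in an order that varied between genes, and both sham groups were lowest. For Mcm2, Cdc6 and Cdt1 the day 1 WT arrays lay apart from the next group down, day 1 KO (4.4% of all probe sets). For Mcm3 and Mcm7 they lay apart from day 7 WT (32.7%) and for Mcm5 from day 7 KO (37.6%). For Mcm4 and Mcm6 they overlapped the next group. As an example of these 3 groups, Mcm5 averaged 8.26 ± 0.37 in day 1 KO (SD, n = 4), 8.29 ± 0.12 in day 7 KO (n = 4) and 8.23 ± 0.28 in day 7 WT (n = 4).

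Within groups the members varied together. Replicate 4 of day 1 WT was the highest of its group in 8 of 8 members, and replicates 1 and 2 of day 1 KO were both above their group mean in all 8. Over the 34 arrays each member's closest relative among the members had a Pearson r of 0.916 to 0.985, with Mcm3 and Cdt1 closest at 0.985. After the group means were removed, the closest pair was Mcm5 and Cdt1 at 0.828, and the lowest r for any pair was 0.295, between Mcm2 and Mcm4. All points share arrays and their scaling, so these values describe the signals and carry no test.

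Of 11990 other genes, the 5 whose signal was most like the members' mean standardized profile were Uhrf1 (r = 0.979 over 34 arrays and 0.999 over the 8 group means), Pcna (0.978 and 0.99), Tfdp1 (0.968 and 0.993), Pole2 (0.965 and 0.991) and Uggt1 (0.964 and 0.977). Uhrf1 maintains DNA methylation behind the fork, Pcna is the sliding clamp, Tfdp1 is the partner of E2F factors, Pole2 is a subunit of DNA polymerase epsilon, and Uggt1 checks glycoprotein folding in the endoplasmic reticulum. Pcna averaged 11.72 in day 1 KO against 12.04 in day 1 WT, and 12.30 in day 3 KO against 12.11 in day 3 WT.

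The remaining replication machinery was described from lists of 59 genes, of which 57 are on the array and 52 were tested. At day 1, 6 of 52 were lower and 0 higher in KO than in WT, with a median of -0.24, where 0.435% of all probe sets were called lower; over the alternatives the count of 6 ranged from 1 to 10. It was 1 with the conflicting labels read by source and time, 2 without both of those arrays, without replicate 4 of day 1 WT or without replicate 4 of day 1 KO, 3 without replicate 1 or 3 of day 1 KO, and 10 with array weights, without replicate 2 of day 3 WT or without replicates 3 and 4 of day 3 KO together. Of the origin recognition complex, which marks the origin before the ring arrives, 0 of 5 tested genes passed (median -0.07). Its subunit Orc6 averaged 7.76 in day 1 KO and 7.97 in day 1 WT (-0.22, adjusted p = 0.568). Orc1 was at the floor in every group, with no group mean above 2.32.

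Among licensing regulators 1 of 4 passed. Gmnn, which encodes geminin, the inhibitor of Cdt1, averaged 7.54 in day 1 KO against 8.08 in day 1 WT (-0.54 ± 0.12, adjusted p = 0.024). Mcmbp, which binds and unloads the ring subunits, had -0.08 (adjusted p = 0.899). Of the origin firing factors 2 of 9 passed. Dbf4, the activating partner of the Cdc7 kinase, averaged 5.92 in day 1 KO against 6.81 in day 1 WT (-0.89 ± 0.20, adjusted p = 0.0305). Cdc7 itself had -0.13 (adjusted p = 0.839), and Gins1, a subunit of the GINS complex, had -0.70 (adjusted p = 0.2). The other gene of this list that passed was Topbp1, chosen after its values were seen (-0.44, adjusted p = 0.0161).

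Of the fork polymerases, clamp and ligase 0 of 24 passed, with 22 of 24 differences negative and a median of -0.24; Pcna had -0.32 (adjusted p = 0.153) and passed in 2 of 45 alternatives. None of the 3 fork protection genes passed. Of the nucleotide supply genes 2 of 4 passed. Rrm2, the regulated subunit of ribonucleotide reductase, averaged 6.45 in day 1 KO against 8.86 in day 1 WT (-2.41 ± 0.27, adjusted p = 1.85e-06), and Rrm1, its large subunit, chosen after its values were seen, had -0.58 (adjusted p = 0.00238). Of the histone deposition genes 1 of 3 passed, Uhrf1 with -1.34 (adjusted p = 0.0305), known for maintaining DNA methylation.

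Of 7 cell cycle genes set beside the licensing genes, 5 were lower in KO at day 1, with a median of -2.20. Mki67, which encodes the proliferation antigen Ki-67, averaged 3.75 in day 1 KO against 7.28 in day 1 WT, a difference of at least 3.52 in size (-3.52 ± 0.45, adjusted p = 1.64e-05), and 4.102 in sham KO against 5.44 in sham WT. In KO it was not called different from sham at day 1 (-0.35, adjusted p = 0.576). The day 1 KO mean lay under 4 and the sham KO arrays spread from 2.72 to 5.74, so this comparison says little. Of the licensing genes 7 of 8 were higher than sham there, and 6 of 8 without the library labelled sham KO replicate 2. Ccne1, which encodes cyclin E1, had 0.02 (adjusted p = 0.968). In the step from day 1 to day 3, Rrm2 gained 4.71 in KO and 1.92 in WT (difference 2.79, adjusted p = 0.000126), and Gmnn gained 1.72 in KO and 0.84 in WT (0.88, adjusted p = 0.00988). Over all 52 other replication genes 6 had a larger step in KO and 0 a smaller one. At day 3, 0 of these 52 differed between KO and WT, with a median of 0.16.

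**Figure D4:**
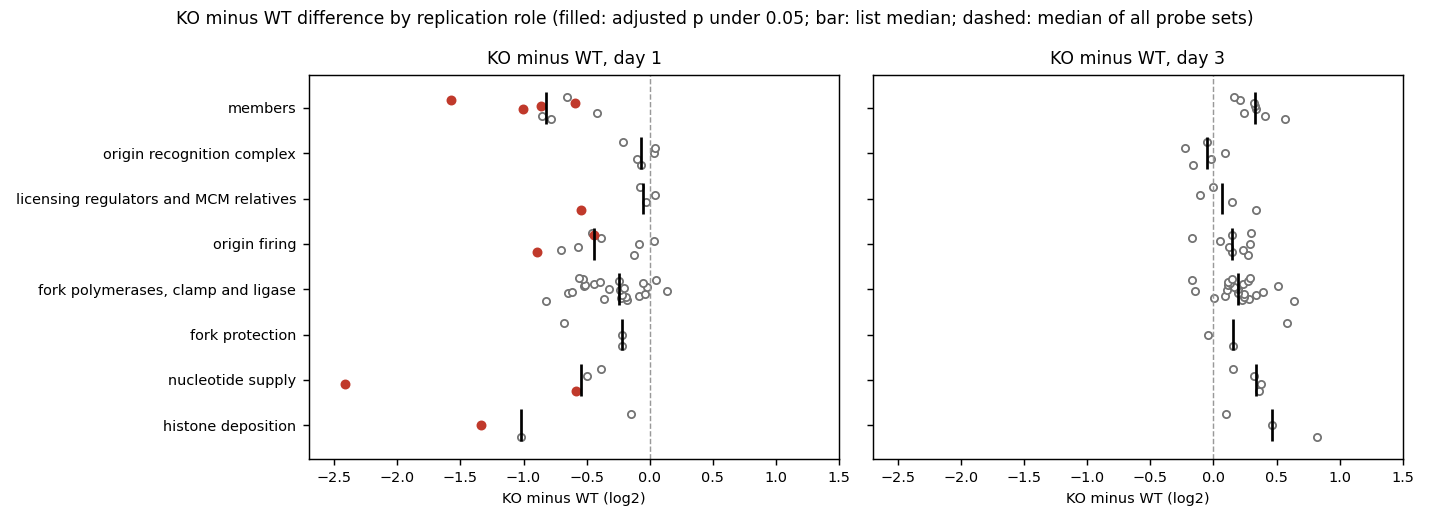
KO minus WT log2 difference (x axis) at day 1 (left) and day 3 (right) of each tested gene, by role (rows); filled red points passed the test, black bars are list medians and dashed lines the median of all probe sets. At day 1 the members' median lies at -0.82 and that of the origin recognition complex at -0.07; at day 3 no gene passed.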

How the data were processed

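Total RNA was extracted with Trizol and biotinylated cRNA was prepared from 1 microgram, per the labels' protocols. The deposited values are log2 expression values made by the authors with GCRMA, per the submitters' processing notes; its version and settings are not given in the sources used here. GCRMA pulls probe sets with no specific signal to a common floor: 33.7% of deposited values lay within 0.1 of the lowest, 2.17, so changes that start there are understated. Array medians were 4.139 to 4.39, and no 2 arrays were identical. Arrays have no read depth; their number limits the precision.

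Groups followed the titles. limma 3.58.1 (R 4.3.3) estimated the 8 group means jointly from the 34 arrays (lmFit, contrasts, eBayes; 26 residual degrees of freedom, two-sided), over 24573 probe sets with log2 of at least 4 in at least 4 arrays, without 64 array controls; p-values were adjusted by Benjamini-Hochberg at 0.05 within each of 18 comparisons. Probe sets were named by the platform annotation: 34958 had 1 gene, 932 several and 9211 none listed. Replicates are labelled biological, and separate animals are not described further, so p-values measure the spread between these samples, which may be technical. The fit was tested on simulated data. Members, gene lists and tests were chosen with earlier results of these data known. By the naming rule, the text names all 10 members, 12 other replication genes (Ccnb1 is not named in the annotation used), the 5 genes most like the members, and Ntrk2, and marks any further gene as chosen after seeing values. Alternatives covered the filter, scaling, probe set choice, spread, replicate block, conflicting labels and leaving out arrays.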

Additional observations from a re-analysis of the deposited data

Results flagged for a closer look

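In 6 of 80 groups of values examined, 1 array lay far from the others of its group, and chance alone flags about 1 in 20 groups. Mcm2 read 6.80 in replicate 4 of day 1 WT, with the others at 6.07 to 6.18. Mcm4 read 8.30 in replicate 3 of sham WT, with the others at 8.57 to 8.60, and 8.79 in replicate 4 of day 7 KO, with the others at 9 to 9.04. Cdc6 read 2.29 in replicate 1 of sham KO and 2.18 in replicate 4 of sham WT, with the others at 3.28 in each group, all near the floor. Ntrk2 on 1 probe set read 8.59 in the library labelled sham KO replicate 2, with the other 3 sham KO arrays at 2.83.

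The step from day 1 to day 3 differed between KO and WT by the test of the difference itself in 4 members: 1.79 log2 units more in KO for Cdc6, 1.34 for Mcm5, 1.19 for Mcm6 and 0.91 for Mcm7. Each of these loses the threshold under some alternatives, among them leaving out replicate 3 or 4 of day 1 KO, and a contrast of the rise from sham at day 1 called 0 members.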

How the results depend on the processing

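In the 2 counts on which the genotypes differ, the direction of all 8 members held in all 45 alternatives, but the counts moved. Leaving out arrays of groups outside a comparison, or changing only the filter or the spread, cannot change its differences. Those alternatives therefore do not bear on direction. KO minus WT at day 1 (4 members) became 2 with no filter on low values (Mcm5 and Cdc6), 2 with only the arrays compared (Mcm7 and Cdc6), 0 with conflicting labels read by source and time, 1 without both of those arrays (Cdc6), 5 after averaging all probe sets per gene (adding Mcm3), 5 without replicates 3 and 4 of day 3 KO together (adding Cdt1; an alternative chosen after seeing the data), and 1 to 4 when 1 array was left out. The KO minus WT difference in the step from day 1 to day 3 (4 members) became 1 with no filter, 0 with only the arrays compared, 0 with array weights, 0 by source and time, 0 without both conflicting arrays, 0 without replicates 3 and 4 of day 3 KO together, 6 after averaging all probe sets per gene and 0 to 7 when 1 array was left out. The same contrast for day 1 minus sham (0 members) gained 1, Cdc6, with array weights and without those replicates together. WT day 3 minus day 1 (1 member) became 0 with no filter, centred arrays, the replicate block, source and time labels or without both conflicting arrays, 2 with the mean of probe sets or without replicates 3 and 4 of day 3 KO together, 3 with array weights, and 0 to 2 when 1 array was left out. WT day 7 minus day 3 (8) became 3 by source and time, and KO day 7 minus day 3 (8) became 5 with the day 7 KO arrays averaged to 1. The cause of these moves was not tested. Uncalled differences that changed sign were Cdc6 at day 3 (-0.164 with array weights, -0.052 to 0.372 when 1 array was left out, lowest without replicate 3 of day 3 KO, -0.271 without replicates 3 and 4), Cdt1 at day 3 (-0.008 with array weights, -0.218 without replicates 3 and 4), Mcm5 at day 3 (-0.011 without replicates 3 and 4), Mcm2 in WT day 3 minus day 1 (-0.043 to 0.229 when 1 array was left out, lowest without replicate 1 of day 3 WT), Mcm3 in the difference of rises at day 1 (0.199 by source and time) and Ccne1 at day 1 (-0.007 with array weights, 0 with the replicate block, -0.013 to 0.056 when 1 array was left out, below 0 without replicate 5 of day 1 WT, -0.011, and without replicate 3 of day 1 KO). Same-numbered KO and WT arrays correlated at -0.361 to 0.32 in their deviations from group means, 6 of 16 pairs over 0.1, so the numbers do not pair them; with the replicate block, the day 1 count stayed at 4, and the step difference was 5, adding Mcm2. Injury counts against sham stayed within 5 to 8 of 8 in every setting run. Over all values of single members under all alternatives, those above included, 4887 kept direction and side of the threshold, 40 newly passed, 121 no longer passed and 8 changed sign. Signals near the floor limit Cdc6, Mcm10 and Cdc45, and leaving an arm with few arrays leans on the spread of the other groups.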
